A study of Arabidopsis thaliana with 24 samples.

Results

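Messenger RNAs that encode the Arabidopsis thaliana decapping and cytoplasmic decay machinery were examined for how accessible their own bases were to dimethyl sulfate (DMS) in roots and shoots. The members were the transcripts of 10 listed loci, taken by locus code with all isoforms: XRN4 (AT1G54490), DCP1 (AT1G08370), DCP2 (AT5G13570), DCP5 (AT1G26110), VCS (AT3G13300), VCR (AT3G13290), PAT1 (AT1G79090), LSM1A (AT1G19120), LSM1B (AT3G14080) and UPF1 (AT5G47010). Of these, 9 loci with 14 transcripts were in the table, out of 8956 loci and 12978 transcripts in all, and VCR was not analysed here. DCP2, DCP5, VCS, PAT1 and LSM1B had 2 isoforms each, and XRN4, DCP1, LSM1A and UPF1 had 1. An isoform is written here as the gene name and its number, such as DCP2.1. Isoforms of 1 locus share sequence and are not separate observations.

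All plants were of the Col-0 accession, labelled as 24 days old, and were moved from agar plates to hydroponic solution before treatment. The 4 conditions were roots with 100 mM NaCl for 48 h, roots kept in the original solution, shoots of the salt-treated plants, and shoots of plants in the original solution. Every condition had 3 replicate libraries from tissue soaked in 0.75% DMS for 5 min and 3 from tissue soaked in buffer without it, each from about 40 pooled plants. The question, from the title of the series, is whether salt alters the folding of RNA in a manner that depends on the tissue. DMS methylates the pairing edge of unpaired adenines and cytosines, and the methyl groups stop reverse transcriptase. The table gave, for each transcript and condition, the mean of the DMS reactivity over bases, its standard deviation (SD) between bases, its highest value at any base, and its Gini index, which runs from 0 for evenly spread reactivity to 1 for reactivity concentrated on few bases.

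Most cytoplasmic mRNA decay in plants begins with shortening of the poly(A) tail. The ring of LSM1 to LSM7 with PAT1 then binds the shortened 3′ end and promotes decapping, the catalytic subunit DCP2 with its partner DCP1 cuts off the 5′ cap on the scaffold VARICOSE (VCS), and the exonuclease XRN4 digests the decapped body from its 5′ end. DCP5 is an RNA-binding decapping activator that also represses translation, and UPF1 is the RNA helicase at the centre of nonsense-mediated decay, which removes mRNAs with premature stop codons. In Arabidopsis, osmotic stress kinases of the SnRK2 family are known to phosphorylate VCS, and LSM1 is needed for normal stress tolerance.

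Each condition had 1 value per transcript where the labels describe 3 replicates, and how the authors combined these is not stated. No spread between replicates, counting interval or test could therefore be given, and every difference below is a description of these pooled values. Each value also averages over all cells of a tissue, so a difference in its makeup of cells and a difference within cells cannot be told apart. Read depth is unknown, and RNA levels are not in the table, so the tissue labels could not be checked against marker genes. In control shoots the SD between bases was nearly the same for all transcripts, with 90% of the 12978 between 0.354 and 0.386 and the 14 decay factor transcripts between 0.353 and 0.380. In control roots the same ranges were 0.183 to 0.504 and 0.198 to 0.286. In control shoots a transcript's mean was thus almost fixed by its Gini index (Spearman's rho -0.996 over the 14 transcripts and -0.993 over all, which share the same libraries), so the order of genes by mean there repeats their order by Gini index. In salt-treated shoots 90% of all transcripts had an SD between 0.310 and 0.450. The sources used here do not say how reactivities were scaled, and the values in control shoots may have been scaled transcript by transcript, which was not tested. If so, means in control shoots are not on the scale of the other conditions, and this limit holds for every ratio below that sets salt-treated shoots or control roots against control shoots, and for the tissue difference of the salt comparison.

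In mean reactivity the decay factor transcripts lay in the ordinary range of the table. Their mean reactivity spanned 0.146 to 0.250 in salt-treated roots, 0.153 to 0.221 in control roots, 0.218 to 0.326 in salt-treated shoots and 0.245 to 0.320 in control shoots. The highest of the 14 was 1.71 times the lowest in salt-treated roots, where they were furthest apart, and 1.31 times in control shoots, where they were closest. The whole table was also narrowest in control shoots. The 95th percentile of all transcripts was 2.45, 2.51, 1.90 and 1.67 times the 5th, in the same order of conditions. The medians of the 14 were 0.198, 0.190, 0.258 and 0.277 in that order of conditions, and those of all transcripts were 0.209, 0.197, 0.265 and 0.272. In salt-treated roots 13 of the 14 lay below the median of all transcripts, in control roots 8, in salt-treated shoots 9 and in control shoots 6.

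**Figure D1:**
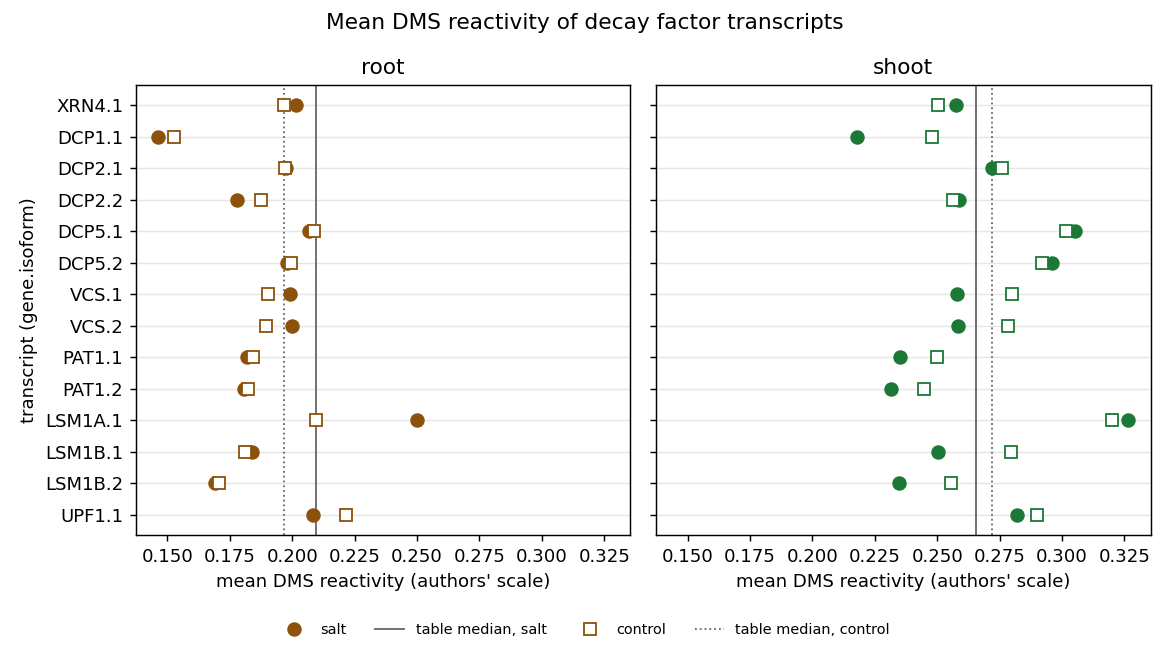
Mean DMS reactivity (x axis, on the authors' scale) of each decay factor transcript (y axis) in roots (left) and shoots (right), with salt as filled circles and without as open squares; each point is 1 pooled value and the vertical lines are the medians of all transcripts. DCP1.1 has the lowest mean in both root conditions and in salt-treated shoots, and LSM1A.1 has the highest in all conditions except control roots, where UPF1.1 is higher.

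The decapping enzyme and its partner differed in level. DCP2, the catalytic subunit, had in isoform 1 a mean reactivity of 0.198 in salt-treated roots, 0.197 in control roots, 0.272 in salt-treated shoots and 0.276 in control shoots. DCP2.2 had 0.178, 0.187, 0.259 and 0.256 in the same order. Salt over control was close to 1 for both isoforms in either tissue, with folds for isoforms 1 and 2 of 1.003 and 0.949 in roots and 0.986 and 1.010 in shoots.

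DCP1, which activates DCP2, was the least reactive member in most conditions. Its mean was 0.146 in salt-treated roots, 0.153 in control roots, 0.218 in salt-treated shoots and 0.248 in control shoots. These values lay at percentiles 5.43, 11.2, 13.3 and 26.6 of all transcripts. In control shoots alone another member, PAT1, averaged lower over its isoforms. The salt-treated shoot value was 0.878 times that of control shoots, a log2 ratio of -0.19 and the lowest of the 14 in that comparison (percentile 8.83), within the limit on the control shoot scale given above. Its most reactive base stood at 0.868 in control roots, against 1.749 in control shoots, a ratio of 0.496.

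DCP5, the decapping activator with a role in translational repression, combined a fairly high mean in shoots with the most even profile of the 9 loci in both root conditions, and the most even but that of LSM1A in both shoot conditions. DCP5.1 had a mean of 0.207 in salt-treated roots, 0.209 in control roots, 0.305 in salt-treated shoots and 0.302 in control shoots. DCP5.2 was slightly lower in each, at 0.198, 0.200, 0.296 and 0.292. The folds of salt over control were 0.990 and 0.992 in roots and 1.012 and 1.014 in shoots. The Gini index of DCP5.1 was 0.605 in salt-treated roots, 0.606 in control roots, 0.615 in salt-treated shoots and 0.620 in control shoots, between percentiles 13.8 and 21.5 of all transcripts.

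VCS, the decapping scaffold, lay on opposite sides of 0 in the tissues with salt. VCS.1 had a mean of 0.199 in salt-treated roots against 0.190 in control roots, and 0.258 in salt-treated shoots against 0.280 in control shoots. The log2 ratios were 0.07 in roots and -0.12 in shoots, and VCS.2 gave 0.08 and -0.11. These were the common directions in the table, where 81.0% of all transcripts were higher in roots and 62.0% lower in shoots. The root ratio of VCS.1 minus its shoot ratio was at percentile 68.1. Measured against all transcripts the root value was slightly under the median, at percentile 41.0, and the shoot value was at percentile 21.4. The Gini index of VCS.1 was 0.698 in salt-treated shoots and 0.667 in control shoots, so reactivity there was spread less evenly with salt.

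PAT1, which links the LSM1 to LSM7 ring to the decapping enzyme, had the most uneven reactivity of the 9 loci in both root conditions and in control shoots. PAT1.1 had a Gini index of 0.731 in salt-treated roots, 0.729 in control roots, 0.722 in salt-treated shoots and 0.720 in control shoots. Its mean was 0.182, 0.184, 0.235 and 0.250 in the same order, and PAT1.2 had 0.181, 0.182, 0.232 and 0.245. In control shoots its most reactive base reached 2.225 in isoform 1, at percentile 94.2 of all transcripts. That value was 1.619 in salt-treated shoots, 0.728 times as high, while the mean was 0.941 times as high.

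The paralogues LSM1A and LSM1B, alternative first subunits of the cytoplasmic LSM ring, stood apart from each other most with salt. LSM1A had a mean of 0.250 in salt-treated roots, 0.210 in control roots, 0.326 in salt-treated shoots and 0.320 in control shoots. LSM1B.1 had 0.184, 0.181, 0.250 and 0.280 in the same order, and LSM1B.2 had 0.169, 0.171, 0.235 and 0.256. LSM1A thus exceeded LSM1B.1 by 1.36-fold in salt-treated roots, against 1.16-fold in control roots, and by 1.30-fold in salt-treated shoots, against 1.15-fold in control shoots. Means of all transcripts also lay closer together in control shoots. Their 95th percentile was 1.67 times the 5th there and 1.90 times in salt-treated shoots, against 2.51 in control and 2.45 in salt-treated roots. The limit on the control shoot scale applies here too. The pair may share reads, depending on a mapping step that the sources used here do not describe, and this was not tested.

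The salt ratio of LSM1A in roots was the largest of the set. At 1.19-fold (log2 ratio 0.25) it lay at percentile 93.0 of all root transcripts, and it was the 1 member above their median. Its most reactive base was at 1.464 in salt-treated roots and 0.955 in control roots, 1.53-fold higher. That was the single member whose highest value passed 1.5-fold upward with salt in roots, where 2.56% of all transcripts did. In shoots the highest value of LSM1A was 2.203 with salt and 1.606 without, 1.37-fold higher, although the mean differed by only 1.02-fold.

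LSM1B had the largest tissue difference of the 14 in the salt comparison of the Gini index. The Gini index of LSM1B.1 was 0.652 in salt-treated roots against 0.686 in control roots, and 0.733 in salt-treated shoots against 0.670 in control shoots. LSM1B.2 had 0.677 against 0.701 in roots and 0.748 against 0.704 in shoots. Reactivity was therefore more even with salt in roots and less even with salt in shoots, in both isoforms. The root change minus the shoot change was -0.098 for LSM1B.1 and -0.068 for LSM1B.2, at percentiles 0.663 and 2.7 among 12978 transcripts.

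XRN4, the cytoplasmic exonuclease also known as EIN5 for its effect on ethylene signalling, was the member closest to the median of all transcripts in control roots. Its mean was 0.201 in salt-treated roots, 0.197 in control roots, 0.257 in salt-treated shoots and 0.250 in control shoots. Salt values were higher in both tissues, by 1.02-fold in roots and 1.03-fold in shoots, which LSM1A also showed. The shoot log2 ratio of 0.04 was the highest of the 14, at percentile 75.5, and the root ratio of 0.03 was at percentile 28.5. In shoots its highest base was at 1.800 with salt and 2.004 without.

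UPF1, the nonsense-mediated decay helicase, had the highest mean of the set in control roots. Its mean was 0.208 in salt-treated roots, 0.221 in control roots, 0.282 in salt-treated shoots and 0.290 in control shoots. The root salt ratio of 0.941-fold (log2 ratio -0.09) was the lowest of the 14, at percentile 6.17. The Gini index of UPF1 was 0.689 in salt-treated roots against 0.655 in control roots, and 0.692 in salt-treated shoots against 0.663 in control shoots, so that it was higher with salt by 0.034 and 0.029. Its highest base in salt-treated shoots, 2.495, was the highest value of any member in any condition and lay at percentile 96.2, against 1.910 in control shoots.

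Averaged over isoforms, the order of the 9 loci by mean reactivity was similar in the 4 conditions at its ends. LSM1A, DCP5 and UPF1 held the first 3 positions in every condition, and DCP1 was last in all except control shoots, where PAT1 was last. No measure of error was available for any pair of neighbours in the order, and several pairs lay closer than the isoforms of DCP2. In salt-treated roots DCP5, XRN4 and VCS followed each other with gaps of 0.427% and 0.947%. In control shoots XRN4, DCP1 and PAT1 did so with gaps of 0.934% and 0.235%. By comparison the isoforms of DCP2 differed by 11.2% in salt-treated roots and 7.68% in control shoots. Those of VCS were much closer to each other, at 0.368% and 0.582%. The widest steps were at the ends in salt-treated roots, where LSM1A was 20.1% above UPF1 and LSM1B was 20.6% above DCP1.

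**Figure D2:**
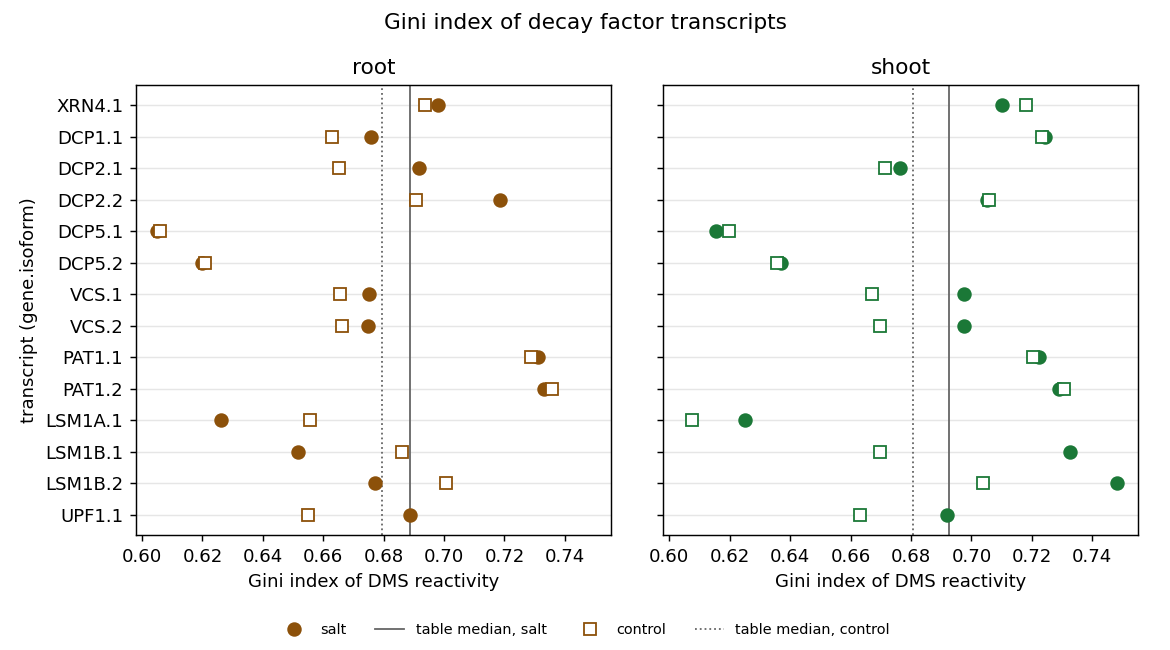
Gini index of DMS reactivity (x axis) of each decay factor transcript (y axis) in roots (left) and shoots (right), with salt as filled circles and without as open squares; each point is 1 pooled value and the vertical lines are the medians of all transcripts. Both LSM1B isoforms move left with salt in roots and right with salt in shoots, while the DCP5 isoforms stay in place between 0.605 and 0.637.

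In the root comparison of salt against control, no decay factor transcript passed 1.5-fold in either direction, and of all 12892 transcripts above the minimum 0.0931% were higher and 0.357% lower by that much. Of the 14, 6 were higher and 8 lower with salt, whereas 81.0% of all transcripts were higher and 19.0% lower. The median log2 ratio was -0.01 for the 14 and 0.09 for all. Relative to that median 13 of the 14 transcripts, and 8 of the 9 loci, were lower, the exception being LSM1A. The 14 ranged from -0.09 in UPF1 to 0.25 in LSM1A. By the highest reactivity none was lower by 1.5-fold, as 0.832% of all transcripts were.

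In shoots likewise no member passed 1.5-fold with salt, and of all 12978 transcripts 0.1% were higher and 0.455% lower by that much. There 5 were higher and 9 lower, and of all transcripts 38.0% were higher and 62.0% lower. The median log2 ratio was -0.06 for the 14 and -0.03 for all, and the members lay on both sides of the median of all, 6 above and 8 below. They ranged from -0.19 in DCP1 to 0.04 in XRN4. Between these, LSM1B.1 was at -0.16 and LSM1B.2 at -0.12, and both DCP5 isoforms were at 0.02. By the highest reactivity none passed 1.5-fold, while 1.6% of all transcripts were higher and 1.61% lower by that much.

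**Figure D3:**
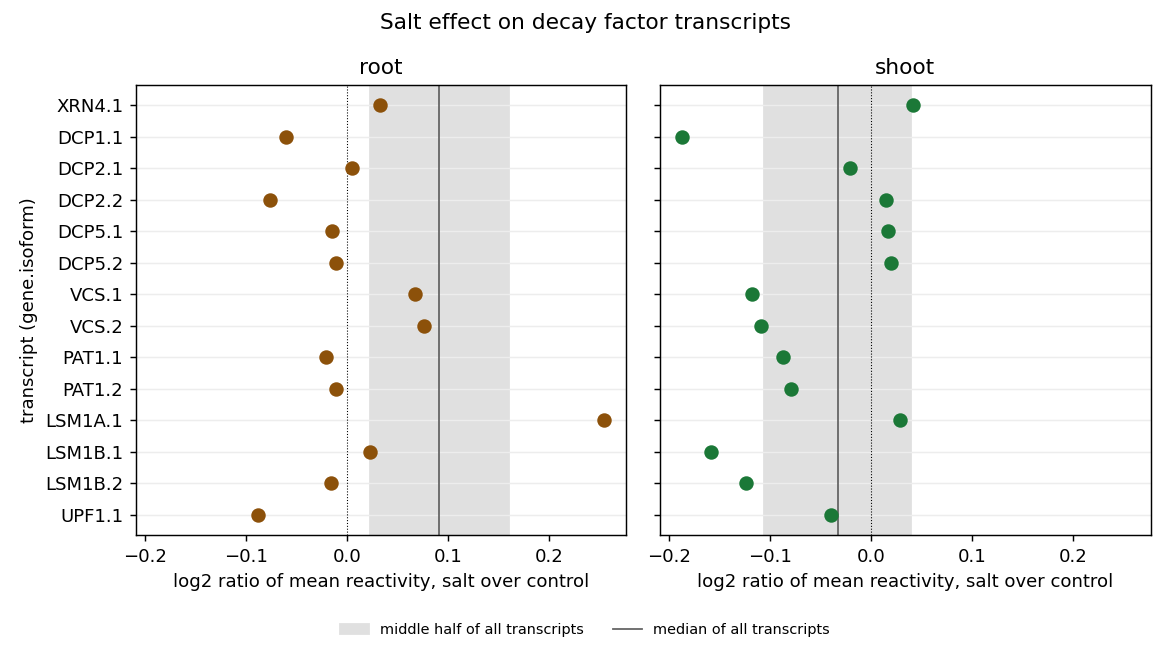
Log2 ratio of mean reactivity, salt over control (x axis), for each decay factor transcript (y axis) in roots (left) and shoots (right); grey bands are the interquartile range of all transcripts, the solid line is their median and the dotted line is 0. In roots every member except LSM1A.1 lies left of the median line, while in shoots 6 lie to its right and 8 to its left.

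The salt log2 ratio in roots minus that in shoots was above 0 in 9 of the 14 transcripts and below 0 in 5, against 82.4% and 17.6% of all transcripts. None passed 1.5-fold, while 0.605% of all were higher and 0.427% lower by that much. The median difference was 0.07 for the 14 and 0.12 for all, and 5 members lay above and 9 below the median of all. LSM1A was highest at 0.23, followed by VCS.1 and VCS.2 at 0.19 and LSM1B.1 at 0.18. DCP2.2 was lowest at -0.09, whereas DCP2.1 was at 0.03, so the isoforms of that gene lay on opposite sides of 0. UPF1 at -0.05, DCP5.1 and DCP5.2, each at -0.03, and XRN4 at -0.0085 were also below 0. The highest reactivity gave no member past 1.5-fold, against 6.22% of all transcripts higher and 2.13% lower.

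By the Gini index the salt comparisons were near those of all transcripts. In roots 8 of the 14 had a higher index with salt, with a median difference of 0.0033 against 0.0081 for all, and 66.4% of all transcripts were higher. In shoots 10 of the 14 were higher, with a median of 0.0034 against 0.0126 for all and 73.3% of all higher. The members spread from -0.035 in LSM1B.1 to 0.034 in UPF1 in roots, and from -0.0081 in XRN4 to 0.063 in LSM1B.1 in shoots.

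Between tissues, all 14 transcripts were less reactive in roots than in shoots, as were most transcripts of the table. Without salt 93.1% of all transcripts were lower in roots and 6.94% higher, and with salt 91.4% were lower and 8.64% higher. Without salt 3 of the 14 transcripts were lower by at least 1.5-fold, against 25.5% of all transcripts. They were DCP1 at 0.616-fold, LSM1B.1 at 0.648-fold and LSM1A at 0.655-fold. With 1 isoform per locus they were 3 of 9, and the share over all loci was not calculated. None of the 3 passed after centring on the median of all transcripts or with a pseudocount of 0.1. None was higher by 1.5-fold, as 0.393% of all were. The median log2 ratio of the 14 was -0.54, against -0.46 for all, and 5 lay above and 9 below that median. XRN4 at -0.35 and UPF1 at -0.39 were the least different between tissues. Just inside and just outside the limit stood LSM1A at 0.655-fold and LSM1B.2 at 0.668-fold.

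With salt no member passed 1.5-fold, against 9.28% of all transcripts lower and 0.231% higher in roots, yet all 14 lay below the median of all. Their median log2 ratio was -0.44 and that of all transcripts -0.32. DCP5.2 at -0.58, DCP1 at -0.57 and DCP5.1 at -0.56 were lowest, and XRN4 at -0.35 and PAT1.2 at -0.36 highest. These comparisons use the same pooled values as the salt comparisons, so their results are not independent of them. The highest reactivity was lower in roots in all 14 transcripts in both comparisons. Most transcripts of the table went the same way, with only 17.3% higher in roots with salt and 13.8% without. It was lower by at least 1.5-fold in 4 members with salt and 7 without, against 23.7% and 36.8% of all transcripts. None was higher by that much, against 4.69% of all with salt and 4.74% without.

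**Figure D4:**
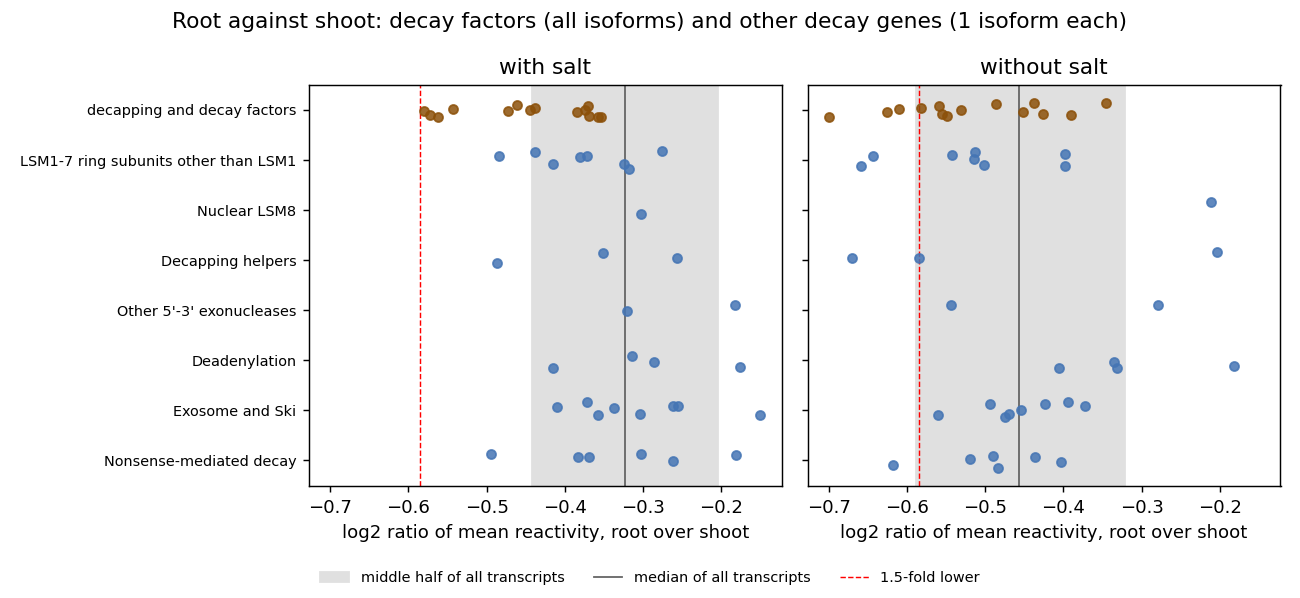
Log2 ratio of mean reactivity, root over shoot (x axis), with salt (left) and without (right), for the decay factor transcripts (top row, all isoforms) and for other decay genes by group (1 isoform each, with points spread vertically for legibility); grey bands are the interquartile range of all transcripts, the solid line is their median and the dashed line marks 1.5-fold lower. All points lie below 0, and in the left panel all 14 decay factor transcripts lie left of the median line.

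Isoforms were nearly equal in mean reactivity for VCS and PAT1 and further apart for DCP5, DCP2 and LSM1B. Among the 1993 loci of the table with 2 isoforms, the more reactive isoform exceeded the other by a median of 3.94% in salt-treated roots and 3.98% in control shoots. The VCS isoforms differed by 0.368% and 0.582% in those conditions and the PAT1 isoforms by 0.567% and 2.06%. The DCP5 isoforms differed by 4.37% and 3.27%, close to those medians. The LSM1B isoforms were further apart, at 8.87% and 9.32%, and the DCP2 isoforms at 11.2% and 7.68%. Isoform 1 was the higher of each of these 3 pairs in all 4 conditions. In the root salt ratio the DCP2 isoforms were 0.08 apart on the log2 scale, at percentile 96.3 of the loci with 2 isoforms in that comparison, whose median gap was 0.01. The DCP2 isoforms had opposite signs in both salt comparisons and the LSM1B isoforms did so in roots, while 4.73% of such loci did in roots and 6.57% in shoots.

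Other genes of mRNA decay were taken from a list of 45 loci, of which 32 were measured and are described by their lowest-numbered isoform. None passed 1.5-fold with salt in either tissue. In roots 28 of the 32 were higher with salt and 4 lower, with a median log2 ratio of 0.07, and 13 lay above the median of all transcripts. In shoots 7 were higher and 25 lower, with a median of -0.04, and 15 lay above the median of all. The 32 genes thus lay on both sides of the median of all transcripts in roots. Every measured decapping and decay factor locus except LSM1A lay below it there, with 13 of the 14 transcripts. The difference between these lists was not tested.

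Among the 8 other subunits of the LSM1 to LSM7 ring, 7 were higher with salt in roots and 2 in shoots. LSM6B was highest in roots, with a mean of 0.177 with salt and 0.144 without (log2 ratio 0.29). LSM3A was lowest of the 32 in shoots, with 0.236 with salt and 0.274 without (-0.22). LSM5, known as SAD1 from its supersensitivity to abscisic acid and drought, was 0.286 in salt-treated and 0.264 in control shoots (0.12). LSM8, which replaces LSM1 in the nuclear ring, was 0.217 in salt-treated and 0.234 in control roots (-0.11).

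The deadenylase CAF1A, which shortens poly(A) tails, had the highest salt ratio of the 32 in shoots and the lowest in roots. Its mean was 0.242 in salt-treated roots against 0.262 in control roots (log2 ratio -0.11), and 0.323 in salt-treated shoots against 0.297 in control shoots (0.12). The difference between tissues was -0.23, at percentile 1.78 of all transcripts. At the other end of that difference stood LSM6B at 0.34 and the exosome subunit RRP4 at 0.32, and LSM8 at -0.09 was second lowest. In roots MAGO, a core protein of the exon junction complex, which has a role in nonsense-mediated decay, was second highest at 0.28. PATH2, a relative of PAT1, was second lowest in shoots at -0.17.

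Between tissues, all 32 other decay genes were lower in roots, with and without salt. Without salt 4 passed 1.5-fold, PATH2 at 0.628-fold, LSM6B at 0.634-fold, LSM6A at 0.640-fold and MAGO at 0.652-fold, against 25.5% of all transcripts, so their share is smaller than that of the table. The smallest differences were those of CAF1A at 0.882-fold and the DEAD-box helicase RH6 at 0.868-fold. With salt none passed, and the median log2 ratio of the 32 was -0.32, with 16 above the median of all transcripts. UPF3, a partner of UPF1, at -0.49 and the DEAD-box helicase RH12 at -0.49 were then lowest, and RRP4 at -0.15 and the deadenylase CCR4A at -0.18 highest.

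The loci with mean reactivities most like those of XRN4, DCP2 and VCS were sought among 8947 other loci by Euclidean distance of log2 mean reactivity over the 4 conditions, with 1 isoform per locus. For XRN4 they were AT5G45590, AT5G41100 and AT1G21580, at distances of 0.0285, 0.0300 and 0.0301. For DCP2 they were AT4G14740, VLN2 and NCBP, at 0.0279, 0.0315 and 0.0328. NCBP, a cap-binding protein of the eIF4E family, had means of 0.200 in salt-treated roots, 0.194 in control roots, 0.271 in salt-treated shoots and 0.273 in control shoots. For VCS they were AT5G20080, UBC34 and AT1G71730, at 0.0295, 0.0397 and 0.0400. Each rests on 4 pooled values.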

How the data were processed

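The deposited table held 1 row per transcript, tissue and treatment. Per the file headers, the authors gave the highest, mean and standard deviation of DMS reactivity as a score on their own scale, and the Gini index as a fraction. The labels describe 24 Structure-seq2 libraries in 8 groups of 3 replicates. The aligner, genome build, normalization, coverage filter and the way replicates were combined go unstated in the labels and headers. Comparisons used log2 ratios of the mean reactivity, without pseudocount, for all isoforms whose mean over both conditions reached 0.1, and a 1.5-fold difference counted as called. All 14 member transcripts passed that minimum. A percentile is the percentage of transcripts with a lower value. Members and gene lists were chosen with earlier results of these data known. Named were all members, and of the other decay genes the 2 highest and 2 lowest ratios per comparison and any past 1.5-fold. Of the 9 member loci, 9 matched the RefSeq TAIR10.1 table used for names. No coordinates or sequences are printed. The calculation was tested on simulated data. Python 3.11.15, pandas 2.3.3 and numpy 2.4.6 were used.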

Additional observations from a re-analysis of the deposited data

How the results depend on the processing

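No paired analysis was possible because the table has 1 pooled value per condition, so replicates could neither be paired nor left out. Of 110 recalculated counts and medians, 98 stayed in place, meaning that a count moved by no more than 1.5 times, a median stayed between the third-lowest and the third-highest member, or kept its sign where the Gini index was replaced by a coefficient of variation between bases. Some settings could not move any of these, because every member met them. They were no minimum, measurement in all 4 conditions, a Gini index of at most 0.9, and identical isoforms taken once. The 98 is therefore no measure of stability. Centring on the median of all transcripts moved the members' median log2 ratio to -0.10 for salt in roots, to -0.083 for root against shoot without salt, to -0.12 with salt, and to -0.057 for the tissue difference of the salt effect, which changed sign. A pseudocount of 0.1 gave -0.38 without and -0.31 with salt for root against shoot. The 3 members past 1.5-fold without salt became 0 after centring, with the pseudocount or at a 2-fold limit. At the lower of the fold limits tried they became 14, and with salt 14 passed as well. The share of all transcripts past that lower limit was not calculated, so these counts do not set the members apart. Such differences were common in the table, where the median log2 ratio of all transcripts was -0.46 without and -0.32 with salt. The median Gini change for the tissue difference, -0.00024, was 0.00684 with that coefficient. With a minimum of 0.2 only 3 members remained for salt in roots, and the median tissue difference was -0.032. With 1 isoform per locus the root salt median was 0.0047, against -0.011 over all isoforms. With the standard deviation in place of the mean, 3 members changed sign for salt in shoots, 3 in roots, 4 for the tissue difference of the salt effect and none for root against shoot. Averaging isoforms was chosen after seeing the data. Depth is unknown, and small ratios cannot be told from replicate variation.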
